A study of Mus musculus with 28 samples.

Results

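Induced hepatocyte-like (iHep) cells made from mouse embryonic fibroblasts with Foxa1 and Hnf4a were compared with adult mouse hepatocytes, to describe which hepatocyte genes the induced cells reached, which were missing, and which genes were active in them but not in hepatocytes. The 6 libraries titled as iHep cells of the Foxa1 arm (iHep_Foxa1) and the 2 libraries titled as hepatocytes (Hep) were taken, 8 of the 28 libraries of the series. The iHep_Foxa1 cells were C57BL/6 fibroblasts of embryos at 13.5 days post coitum that had been infected with retroviruses carrying Foxa1 and Hnf4alpha. Hep cells came from the livers of C57BL/6 mice 10 weeks old and were isolated by collagenase digestion, with no virus. The 2 libraries of uninfected fibroblasts from embryos of the same age (MEF) served as the starting level. The labels do not give passages, clones, or the number of cultures, embryos or mice behind the libraries, so p-values measure the spread between these libraries, which may be technical. Cultured cells of embryonic origin were set against freshly isolated adult cells, and culture, age, infection and the 2 introduced factors cannot be told apart in this comparison.

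Hepatocytes carry out a wide set of tasks for the body: they secrete albumin, clotting factors, complement and apolipoproteins, make urea, glucose and bile acids, and clear drugs through cytochrome P450 and conjugating enzymes. Their identity is held by a network of transcription factors that bind one another's genes. HNF4A is a nuclear receptor of that network. The FOXA proteins are forkhead factors that can bind closed chromatin and act early in liver development, and also in gut, pancreas and lung. Delivery of Hnf4a with 1 Foxa gene was described as enough to turn fibroblasts into epithelial cells with hepatocyte traits.

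Levels are given in CPM, counts relative to the size of the library, with that size scaled by TMM, which corrects for a few very abundant genes taking up reads. This correction was large here. The TMM factors were 0.522 and 0.55 in Hep and 0.976 to 1.079 in iHep_Foxa1, and all Hep levels are therefore nearly doubled relative to reads alone. Assigned reads numbered 17996416 to 31216564 in iHep_Foxa1, 14592820 and 15658619 in Hep, and 22039143 and 22178268 in MEF. Within iHep_Foxa1, replicates 4, 5 and 6 stood apart from replicates 1, 2 and 3. Rn7sk, a small nuclear RNA without a poly(A) tail, was at 47.2 to 67.9 CPM in the former and at 0.258 to 1.05 in the latter, and Rps29, a short ribosomal protein gene, was at 663 to 921 against 27.6 to 33.4. The Hep libraries resembled replicates 1, 2 and 3, with Rn7sk at 1.84 and 5.98 CPM and Rps29 at 42.4 and 60.5. Values for both sets of libraries are given for the main genes whose levels differed between them.

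Both introduced genes were present in all iHep_Foxa1 libraries. Foxa1 ranged from 468 to 3419 CPM with a median of 1021, against 40 and 35.7 in Hep and 0.718 and 0.333 in MEF, and its log2 difference from Hep was 5.18 ± 0.96 (SE; edgeR quasi-likelihood test, Benjamini-Hochberg adjusted p = 7.6e-05). Replicates 1, 2 and 3 carried 1345 to 3419 CPM and replicates 4, 5 and 6 carried 468 to 697, so every induced library lay above Hep. Hnf4a ranged from 108 to 670 CPM with a median of 338, against 1071 and 942 in Hep and 0 and 0.19 in MEF. Replicates 1, 2 and 3 carried 108 to 314 CPM and replicates 4, 5 and 6 carried 363 to 670, the reverse of the order for Foxa1. It was lower than in Hep in every library, with a log2 difference of -1.46 ± 0.55 (edgeR adjusted p = 0.026). The call ended without either Hep library (adjusted p = 0.13 and 0.077), with reads alone (log2 -0.53, adjusted p = 0.4), with limma (log2 -0.70, adjusted p = 0.28) and over replicates 4, 5 and 6 alone (log2 -1.04, adjusted p = 0.12). Reads from the viral copies and from the cells' own genes were not separated in either case.

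Of 16499 genes tested between iHep_Foxa1 and Hep, 9912 were called at an edgeR adjusted p under 0.05, which is 60.1% of them. They split into 5820 higher genes, 35.3% of those tested, and 4092 lower genes, 24.8%. The split changed with the settings: with library sizes taken from assigned reads alone, 9326 were higher and 2373 lower, and limma on log2(FPKM + 1), which differs in unit, filter and test as well, called 2157 lower. The median log2 difference over all genes was 0.42, and it was 0.21 with DESeq2 size factors and 1.36 with reads alone.

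A hepatocyte gene was defined by level alone, as one with a Hep mean of 10 CPM or more that was at least 10 times the MEF mean, and 1246 genes met this. Each was placed by its iHep_Foxa1 mean: 87 (6.98%) were reached, at 50% of Hep or more, 406 (32.6%) were partial, at 5% to 50%, and 278 (22.3%) were at trace level, under 5% but at 1 CPM or more. The largest class was missing, with 475 genes (38.1%) under 1 CPM. Of 177 hepatocyte genes at 1000 CPM or more in Hep, 2 were reached, 36 partial, 75 at trace level and 64 missing. Because the classes are cut from the levels under comparison, no test is attached to their counts. Hpgd at 50.6% of Hep lay just inside the reached class and H2-T-ps at 49.7% just outside.

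The 1246 hepatocyte genes took 56.7% and 56.9% of assigned reads in Hep, 4.91% to 8.74% in iHep_Foxa1 and 0.934% and 1.01% in MEF. Every induced library thus held several times the fibroblast share and far less than the hepatocyte share. Counted library by library, 63 to 117 genes were reached, 34 of them in all 6 libraries and 170 in at least 1. Under 1 CPM in all 6 were 377 genes, and 103 of the missing genes had no count in any. In 269 of the 475 missing genes the iHep_Foxa1 mean was at or under the MEF mean. In 440 of the 475 the MEF mean was itself under 1 CPM, so most of these levels lie near the floor in both groups. Against MEF, 69 of the 475 were called lower and 19 higher, where 19.9% and 20% of all genes were. The library sets gave similar totals, with 89 reached and 501 missing over replicates 1, 2 and 3, and 89 reached and 505 missing over replicates 4, 5 and 6. Equal totals do not show that the same genes were in each class. Kng1, for example, was at 291, 30.7 and 229 CPM in the former and 1763, 2050 and 974 in the latter, against 2491 and 2497 in Hep.

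**Figure D1:**
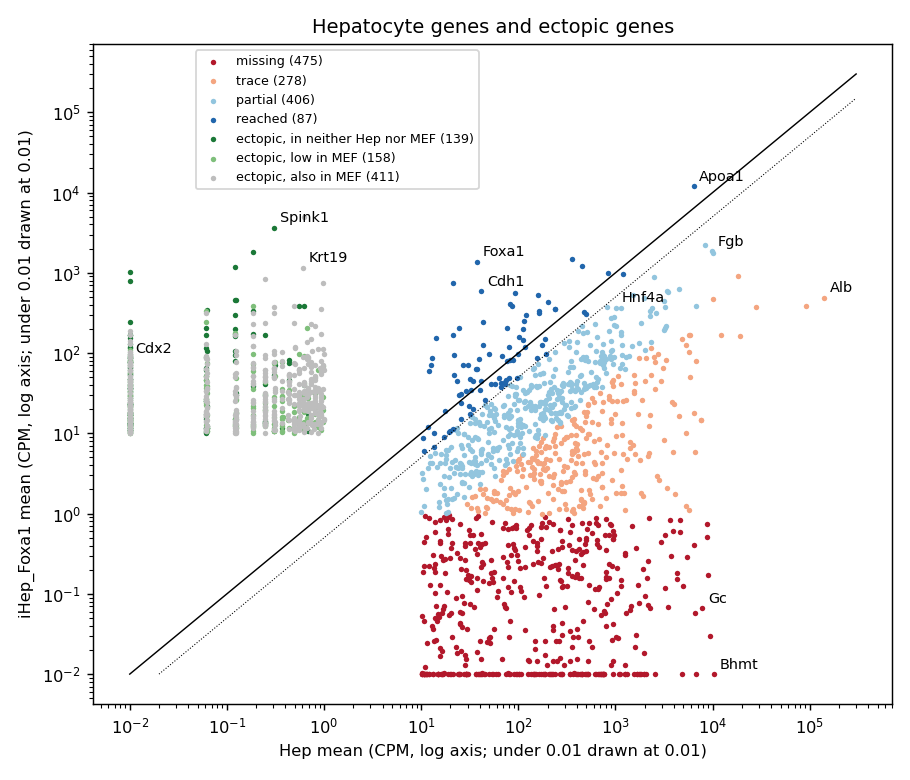
Mean level in Hep (x axis, CPM, log) against mean level in iHep_Foxa1 (y axis, CPM, log) for the 1246 hepatocyte genes and 708 ectopic genes, 1 point a gene, coloured by class. The solid line marks equal levels and the dotted line 50% of Hep; most hepatocyte genes lie far below both, and Apoa1 lies above them.

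On 15 lists of named hepatocyte functions, joined to 336 genes, 310 of the 333 tested were lower than in Hep, against 24.8% of all genes, and 3 were higher, against 35.3%. The same shares of the Hep level were applied to the 325 list genes at 10 CPM or more in Hep, here and in the list results that follow without regard to MEF, so that genes as high in MEF are included: 15 were reached, 96 partial, 93 at trace level and 121 missing. Against MEF, which is a separate comparison that shares the iHep_Foxa1 libraries, 111 of them were higher and 58 lower, where 39.9% of all genes were called, 20% as higher and 19.9% as lower. The lists differed in how much of the hepatocyte level was held. The median share of the Hep level was 12.2% for fatty acid oxidation and ketogenesis, 9.6% for cholesterol and fatty acid synthesis and 4.66% for hepatic transcription factors. It was 0.242% for plasma proteins, 0.125% for bile acid genes and 0.0395% for coagulation.

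**Figure D2:**
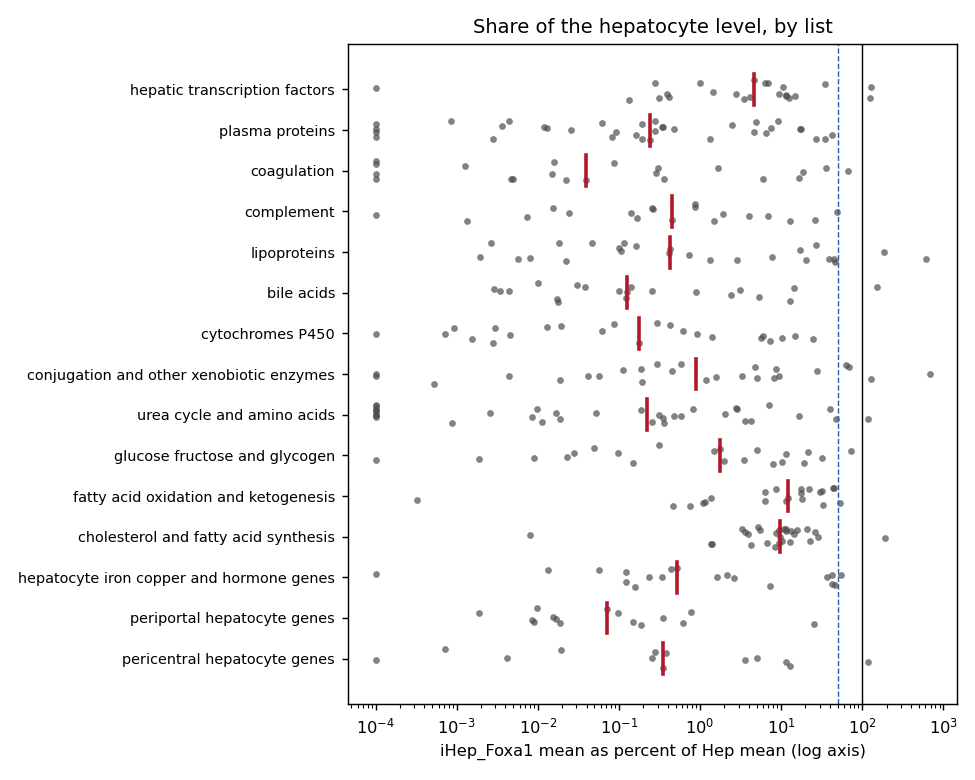
Level in iHep_Foxa1 as a percent of the level in Hep (x axis, log; values under 0.0001% are drawn at 0.0001%) for genes at 10 CPM or more in Hep, 1 point a gene, on each of 15 lists. Red bars are list medians, the dashed line is 50% and the solid line 100%; the medians run from 0.0395% for coagulation to 12.2% for fatty acid oxidation.

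Among hepatic transcription factors, 23 of 26 were lower than in Hep and none was higher. Gata4 and Gata6, zinc finger factors of early endoderm, were at the hepatocyte level. Gata4 ranged from 10 to 81.2 CPM with a median of 22.9, against 24.1 and 24.7 in Hep and 0.144 and 0.0476 in MEF. Gata6 ranged from 11.6 to 39.9 with a median of 21.6, against 20.8 and 17.2 in Hep. In Gata4 replicates 1, 2 and 3 (31.1 to 81.2 CPM) lay above both Hep libraries and replicates 4, 5 and 6 (10 to 14.7) below both. In Gata6 both sets overlapped Hep. The pooled differences did not pass the test (edgeR adjusted p = 0.69 and 0.44), although Gata6 was called higher with reads alone (log2 1.30, adjusted p = 0.0079).

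Cebpa, a driver of the mature metabolic programme, ranged from 50.4 to 154 CPM with a median of 73.4, against 2348 and 1747 in Hep and 21.9 and 56.4 in MEF (log2 difference from Hep -4.58 ± 0.38, adjusted p = 8e-10). The induced cells thus held Cebpa nearer to the fibroblast than to the hepatocyte level. Several ligand-activated receptors of liver were close to silent. Nr1h4, the bile acid receptor FXR, had a median of 0.195 CPM and a highest value of 3.22, against 159 and 186. Nr1i3, the xenobiotic receptor CAR, reached at most 1.37 CPM against 152 and 192. Nr0b2, which FXR induces and which represses bile acid synthesis, had no count in any induced library and 25.6 and 23.5 CPM in Hep, at least 1160-fold lower. Ppara, the fatty acid receptor of liver, was at 1.72 to 2.85 CPM against 226 and 227. Nr1i2, the xenobiotic receptor PXR, held more, with 6.35 to 56.1 CPM against 216 and 226. Foxa2 and Foxa3, the other 2 members of the family in adult liver, reached at most 0.67 and 0.627 CPM, against 114 and 93.4 for Foxa2 and 190 and 124 for Foxa3 in Hep.

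**Figure D3:**
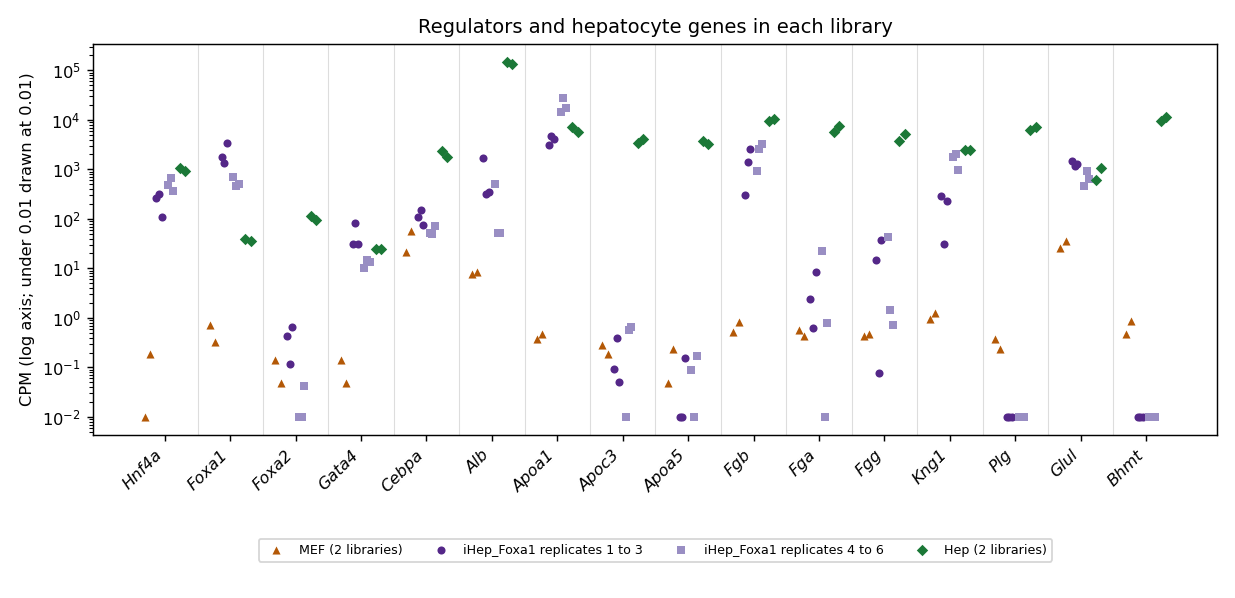
Level of 16 regulators and hepatocyte genes in each library (y axis, CPM, log; values under 0.01 are drawn at 0.01), with MEF as triangles, iHep_Foxa1 replicates 1 to 3 as circles and 4 to 6 as squares, and Hep as diamonds. Apoa1 and Glul overlap the Hep libraries, whereas Plg and Bhmt are at 0 in all 6 induced libraries.

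The promoters of list genes are shown for matches to the cores of sites bound by the kinds of factor that were introduced, forkhead and HNF4. Promoters were the 250 bases before to 50 after the start site in RefSeq (build GRCm38.p6). A forkhead core, TGTTTAC on either strand, stood in 4.05% of all 27025 genes of that table. It was found in 6 of 92 missing list genes with a promoter entry (6.52%), 4 of 73 trace genes (5.48%), 4 of 73 partial genes (5.48%) and 0 of 9 reached genes. An HNF4 core, CAAAGTCCA on either strand, stood in 0.555% of all genes and in 1 missing and 2 trace genes. No forkhead match overlapped an HNF4 match. These are letter matches and not measured binding, and absence of a match says only that these letters are not in the window. The 100 bases before the start site are printed for the 7 list genes with a match wholly inside them, chosen for that match, and for Apoa1 and Fgb, a reached and a partial gene of high level, which have none. Capitals mark the match, which is of the HNF4 kind in Cyp8b1 and Cyp2c70 and of the forkhead kind in the other 5.
Apoa2 (missing, chr1:171224954-171225053, plus strand): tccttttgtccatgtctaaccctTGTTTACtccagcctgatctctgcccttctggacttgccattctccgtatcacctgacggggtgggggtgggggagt
Apoh (missing, chr11:108395197-108395296, plus strand): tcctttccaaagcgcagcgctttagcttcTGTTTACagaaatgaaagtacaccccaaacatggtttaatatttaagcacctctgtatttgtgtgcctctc
Klkb1 (missing, chr8:45294836-45294935, minus strand): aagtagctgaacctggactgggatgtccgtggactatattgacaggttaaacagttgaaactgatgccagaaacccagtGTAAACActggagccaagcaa
Cyp8b1 (missing, chr9:121916306-121916405, minus strand): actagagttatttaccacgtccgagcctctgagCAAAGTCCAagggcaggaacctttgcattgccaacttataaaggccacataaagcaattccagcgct
Cyp2c70 (trace, chr19:40187287-40187386, minus strand): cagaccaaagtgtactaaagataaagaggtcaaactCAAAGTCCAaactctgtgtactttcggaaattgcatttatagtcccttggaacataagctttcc
F11 (partial, chr8:45262032-45262131, minus strand): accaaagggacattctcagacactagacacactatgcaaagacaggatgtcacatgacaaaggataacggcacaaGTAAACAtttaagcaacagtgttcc
Selenop (partial, chr15:3270877-3270976, plus strand): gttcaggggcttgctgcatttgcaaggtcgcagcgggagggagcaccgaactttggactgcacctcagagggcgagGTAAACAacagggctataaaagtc
Apoa1 (reached, chr9:46228530-46228629, plus strand): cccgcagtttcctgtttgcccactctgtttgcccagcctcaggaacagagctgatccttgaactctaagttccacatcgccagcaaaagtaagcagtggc
Fgb (partial, chr3:83049864-83049963, minus strand): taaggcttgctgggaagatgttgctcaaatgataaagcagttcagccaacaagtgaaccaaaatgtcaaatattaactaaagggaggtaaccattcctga
The genes with a match differed widely in level. Selenop held 771 CPM or more in every induced library, while Klkb1, the plasma kallikrein gene, reached at most 0.0837 CPM against 244 and 209 in Hep. Apoh, a phospholipid-binding plasma protein, reached at most 2.05 CPM against 4226 and 5010. F11, a clotting factor, ranged from 0.515 to 27 CPM against 198 and 124. Cyp8b1, which sets the kind of bile acid made, reached at most 1.31 CPM against 200 and 316, and Cyp2c70, a bile acid hydroxylase of mouse, ranged from 1.91 to 4.08 against 635 and 626.

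Plasma proteins were lower than in Hep for 34 of 35 genes. Alb, the most abundant secreted protein of liver, ranged from 51.8 CPM in replicate 6 to 1683 in replicate 1, with a median of 331, against 148958 and 131113 in Hep and 7.8 and 8.52 in MEF. Every induced library lay above MEF and far below Hep, and the mean was 0.351% of the Hep level (log2 difference -8.16 ± 1.43, adjusted p = 3.8e-05). Other carriers held a larger share. Selenop, the selenium carrier, ranged from 771 to 3784 CPM with a median of 2324, against 9086 and 7667 in Hep. Serpina1b, an alpha-1-antitrypsin gene, ranged from 202 to 4018 with a median of 1211, against 10531 and 9597, and was at 715 or less in replicates 1, 2 and 3 and at 1707 or more in the others; it belongs to a family of near-identical copies whose reads may be split between them. Cp, the copper oxidase ceruloplasmin, stood at 34.5% of Hep, with 580 to 897 CPM in replicates 1, 2 and 3 and 222 to 369 in replicates 4, 5 and 6, against 1424 and 1616. With reads alone the lower calls of Selenop, Serpina1b and Cp ended (adjusted p = 0.071, 0.11 and 0.31), that of Cp also without the second Hep library (adjusted p = 0.067) and that of Serpina1b without either (adjusted p = 0.067 and 0.052). Cp was not called over replicates 1, 2 and 3 alone (log2 -0.99, adjusted p = 0.09), nor with limma (log2 -0.79, adjusted p = 0.19), nor Serpina1b over replicates 4, 5 and 6 alone (log2 -1.74, adjusted p = 0.08). Ahsg (fetuin-A) ranged from 48.2 to 2751 CPM against 18088 and 18661.

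In the same family of functions other genes had almost no reads. Gc, the vitamin D binding protein, reached at most 0.174 CPM against 8559 and 7136 in Hep. Itih1 had no count in any induced library, against 2045 and 1898 CPM in Hep, at least 93104-fold lower. Itih2, which encodes another chain of the inter-alpha-trypsin inhibitor family, was at 303 to 835 CPM against 3582 and 3200. The 2 chain genes thus fell into opposite ends of the list.

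The 3 fibrinogen genes, which lie side by side and whose products form one protein, differed in the same way. Fgb ranged from 299 CPM in replicate 1 to 3265 in replicate 6 with a median of 1993, against 9322 and 10357 in Hep (log2 difference -2.41 ± 0.67, adjusted p = 0.0036), a call that missed the threshold with reads alone (adjusted p = 0.058). Fga ranged from 0 to 22.6 CPM with a median of 1.61, against 5720 and 7538. Fgg ranged from 0.0784 to 42.9 with a median of 8.09, against 3752 and 5252. The deposited FPKM is per length and takes the library size from assigned reads without TMM, which lowers Hep relative to the CPM values. On that scale the iHep_Foxa1 means were 1209 for Fgb, 2.05 for Fga and 11.3 for Fgg, where Hep had 3353, 1188 and 1578. Fgb was above Fga and Fgg in all 6 induced libraries, and replicate 4 had the highest Fga and Fgg.

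Of 21 coagulation genes, 19 were lower than in Hep. Kng1, the kininogen precursor of bradykinin, was not called (adjusted p = 0.12), although its libraries did not overlap those of Hep: it ranged from 30.7 to 291 CPM in replicates 1, 2 and 3 and from 974 to 2050 in replicates 4, 5 and 6, against 2491 and 2497. Over replicates 1, 2 and 3 alone it was called lower (log2 -3.76, adjusted p = 0.00023), and so it was without replicate 5 (adjusted p = 0.044). Pros1, the anticoagulant protein S, was the other gene not called, with 21.1 to 141 CPM against 101 and 95.4, with MEF at 177 and 190; without replicate 3 it was called lower (adjusted p = 0.034). Plg, the plasminogen gene, had no count in any induced library, against 6262 and 7075 CPM in Hep, at least 314928-fold lower. F9 was also without a count, against 431 and 538 CPM; it was named after its values were seen.

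Complement genes were lower for 18 of 19. C3, the central component, ranged from 10.5 to 515 CPM with a median of 33.5, against 17875 and 20139, and Cfb, factor B of the alternative pathway, from 45.1 to 731 with a median of 199, against 2275 and 2287. The list's summed level was 809 to 1303 CPM in replicates 1, 2 and 3 and 97.7 to 253 in replicates 4, 5 and 6, against 32702 and 36058 in Hep, so the sets differed without either nearing the hepatocytes. The part of the library set in this difference was not tested. Masp1 was the gene not called, at 6.32 to 56.5 CPM against 64 and 43.1, and without replicate 3 it was called lower too (adjusted p = 0.018).

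Apoa1, whose product forms the frame of high-density lipoprotein, was the most abundant gene that reached the hepatocyte level. It ranged from 3154 to 28174 CPM with a median of 9598, against 7052 and 5775 in Hep and 0.383 and 0.476 in MEF. Replicates 1, 2 and 3 (3154, 4646 and 4168 CPM) lay below both Hep libraries and replicates 4, 5 and 6 (14551, 28174 and 17189) above both, and the pooled difference did not pass the test (log2 0.90 ± 0.65, adjusted p = 0.23). It was called higher with reads alone (log2 1.83, adjusted p = 0.019) and over replicates 4, 5 and 6 alone (log2 1.59, adjusted p = 0.006). Its neighbours in the same gene cluster were missing. Apoc3 reached at most 0.67 CPM against 3368 and 4103 in Hep, Apoa4 at most 1.42 against 428 and 578, and Apoa5 at most 0.167 against 3663 and 3280. The difference from MEF did not pass the test for any of the 3 (adjusted p = 0.89, 0.2 and 0.39). Apoa4 was added to complete the cluster, after its values were seen.

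Of 25 lipoprotein genes, 22 were lower than in Hep. Apoa2, another protein of that particle, was missing, at no more than 1.96 CPM against 7641 and 9996. Apob, the scaffold of very-low-density lipoprotein, ranged from 10.7 to 532 CPM with a median of 101, against 5172 and 6434. Apoe ranged from 187 to 632 CPM against 103158 and 79288, and its difference from MEF, at 66.1 and 291, did not pass the test (adjusted p = 0.27). Angptl4, an inhibitor of lipoprotein lipase, was not lower: it ranged from 50.8 to 163 CPM in replicates 1, 2 and 3 and from 574 to 1661 in replicates 4, 5 and 6, against 118 and 65.8 (adjusted p = 0.061). It was called higher without replicate 1, 2 or 3 (adjusted p = 0.039, 0.046 and 0.031). Over replicates 4, 5 and 6 alone, 2 genes of this list were called higher than Hep, where none was over all 6.

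Bile acid synthesis and transport genes were lower for 19 of 20, and 14 were missing. Abcb11, the bile salt export pump, reached at most 0.13 CPM against 2219 and 2080, and Slc10a1, the transporter that takes bile acids up from blood, at most 0.274 against 679 and 643. Cyp7a1, the rate-limiting enzyme of bile acid synthesis, was at 0.217 CPM or less against 461 and 454; it was named for its role, after its values were seen. Cyp27a1, which starts the alternative route, held 12.8% of the Hep level, with 32.8 to 194 CPM against 745 and 686. Atp8b1, a lipid flippase of the canalicular membrane, ranged from 59.3 to 144 CPM against 70.6 and 61.5 and was not called (adjusted p = 0.092). It was called higher with reads alone (log2 1.55, adjusted p = 0.00017), with limma (log2 1.35, adjusted p = 0.00012), over replicates 4, 5 and 6 alone (log2 0.72, adjusted p = 0.048) and without replicate 1 (adjusted p = 0.036).

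Amino acid metabolism was the function with the most genes at 0. Of 34 genes, 32 were lower than in Hep, 17 were missing and 8 had no count in any induced library. Bhmt, which methylates homocysteine, had 9684 and 11178 CPM in Hep and no count in iHep_Foxa1, at least 492610-fold lower, while MEF had 0.479 and 0.856. Hpd and Tdo2, which break down tyrosine and tryptophan, were without a count as well, against Hep levels of 5192 and 4580 and of 2026 and 2120 CPM. Cps1, which feeds ammonia into the urea cycle, had a median of 0.151 CPM and a highest value of 3.44 in replicate 1, against 10447 and 7061. Ass1, the next but one step, was at 4.55 to 23.8 CPM, below MEF at 322 and 163 and far below Hep at 8310 and 7044 (log2 difference from MEF -4.05, adjusted p = 2.7e-06).

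Glul, glutamine synthetase, was the exception with a full level. In liver it is a marker of the hepatocytes around the central vein. It ranged from 469 to 1494 CPM with a median of 1034, against 602 and 1087 in Hep and 25.5 and 35.1 in MEF, so the induced and hepatocyte libraries overlapped (log2 difference 0.23 ± 0.53, adjusted p = 0.72). Replicates 1, 2 and 3, at 1151 to 1494 CPM, lay above both Hep libraries, and replicates 4, 5 and 6 were at 469 to 917. Of 15 pericentral genes tested, Glul included, 14 were lower than in Hep, and of 15 periportal genes all were. Gldc, the glycine cleavage enzyme, was the other amino acid gene not called, with 138 to 408 CPM against 442 and 457 (adjusted p = 0.091), although no library reached Hep, and it was called lower without replicate 5 (adjusted p = 0.03).

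Glucose and fructose genes were lower for 20 of 21. Pck1 and G6pc, both enzymes of glucose production, reached at most 0.941 and 0.285 CPM. In Hep, Pck1 had 9918 and 8210 CPM and G6pc had 839 and 799. Pcx, on the same list, held 11.6% of the Hep level. Galk1, the first enzyme of galactose use, was not called, at 75.5 to 132 CPM against 147 and 129 in Hep and 140 and 123 in MEF, but was called lower without replicate 3 (adjusted p = 0.02) and by DESeq2 (adjusted p = 0.0058). Enzymes of general glycolysis were in part higher than in Hep. Of 20 glycolysis genes of non-liver cells, 13 were higher than in Hep and 1 lower, against 35.3% and 24.8% of all genes. Gapdh, Pgk1, Pgam1, Ldha and Eno1 stood near the Hep level, with means at 86.5% to 119% of it, and Pdk1 at 14.4%. Pkm, pyruvate kinase of most other tissues, ranged from 1159 to 3220 CPM against 26.3 and 23.4 in Hep and 3012 and 2007 in MEF (log2 difference from Hep 6.40 ± 0.48, adjusted p = 1.4e-10). The liver counterpart Pklr, named after its values were seen, had a median of 0.167 CPM against 430 and 302 in Hep.

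Fatty acid oxidation was the best-held metabolic function, though all 21 genes tested were lower than in Hep. Acadl, a dehydrogenase of the mitochondrial cycle, ranged from 117 to 229 CPM with a median of 186, against 450 and 375 in Hep and 93.4 and 92.1 in MEF, and Acsl1, which activates fatty acids, from 310 to 406 against 1162 and 1133. These values varied little between the 6 libraries. The call of Acadl ended with reads alone (log2 -0.24, adjusted p = 0.27). Against MEF, 16 genes of this list were higher and 1 lower. Fabp1, the liver fatty acid carrier, had at most 0.103 CPM against 11200 and 7604.

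Cholesterol and fatty acid synthesis showed another pattern. Of 28 genes 27 were lower than in Hep, and 21 were also lower than in MEF, with none higher. Insig1, a sterol-regulated brake on the pathway, ranged from 66.6 to 213 CPM, against 3808 and 3969 in Hep and 480 and 1096 in MEF. Scd1, the fatty acid desaturase, ranged from 65.7 to 292, against 18936 and 5651 in Hep and 397 and 519 in MEF. Srebf2, whose product switches the cholesterol genes on, was the gene higher than in Hep, at 136 to 186 CPM against 88.1 and 83.6 (log2 difference 0.92 ± 0.20, adjusted p = 0.00046), and MEF had 238 and 244. The induced libraries thus lay between the 2 references for Srebf2 and below both for Insig1 and Scd1.

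Cytochrome P450 genes were lower for 23 of 24. Cyp2e1, which oxidises ethanol, had a median of 0.97 CPM against 5280 and 6242, close to MEF at 0.622 and 1.43. Cyp3a11, the main inducible drug oxidase, ranged from 0 to 5.22 CPM against 2970 and 3756. Por, the reductase that all microsomal members need, kept the largest share on the list, 24.5%, with 84.2 to 334 CPM against 581 and 701. Among 27 conjugating and other xenobiotic enzymes, 22 were lower and 2 higher. The higher ones were glutathione transferases: Gsta4 ranged from 693 to 1786 CPM against 245 and 165 in Hep and 27 and 22.7 in MEF, and Gsta1 from 237 to 594 against 8.94 and 6.85. All 6 induced libraries lay above Hep for both (log2 differences 2.77 ± 0.38 and 5.63 ± 0.58, adjusted p = 2e-06 and 2.8e-08). Gsta1 has near-identical relatives, and its counts are uncertain to that extent. Ephx2, the soluble epoxide hydrolase, was reached, at 169 to 432 CPM against 425 and 521 (adjusted p = 0.16), and over replicates 1, 2 and 3 alone it was called lower (log2 -0.91, adjusted p = 0.03).

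Genes of epithelial structure were reached more widely. The epithelium list holds 17 hepatocyte genes by the level rule, of which 12 were reached, 4 partial and 1 missing, while 5 of the 87 reached genes were on any of the 15 hepatocyte lists. Of 38 epithelial genes tested, 17 were higher than in Hep and 6 lower, where 35.3% and 24.8% of all genes were, and 32 were higher than in MEF, where 20% of all genes were. The same background holds for the counts of the lists that follow. Krt8 and Krt18, the keratin pair of simple epithelia, overlapped Hep. Krt8 ranged from 309 to 2789 CPM with a median of 719, against 519 and 385 in Hep and 1.15 and 0.523 in MEF, and Krt18 from 116 to 660 with a median of 357, against 288 and 194. Cldn2, a pore-forming tight junction protein, ranged from 31.7 to 249 CPM against 94 and 130, and Cgn, the junction plaque protein cingulin, from 335 to 582 in replicates 1, 2 and 3 and from 127 to 236 in replicates 4, 5 and 6, against 118 and 124. With reads alone these 4 genes were called higher than Hep (adjusted p = 0.011, 0.032, 0.041 and 0.0021), and Cgn also without replicate 4 or 5 (adjusted p = 0.027 and 0.031). Cdh1, E-cadherin, exceeded the hepatocytes in every library, with 333 to 1014 CPM and a median of 570 against 46.4 and 36.7 (log2 difference 3.84 ± 0.57, adjusted p = 5.2e-06). Desmosomal Dsg2, in contrast, was lower than in Hep, at 3.91 to 136 CPM against 241 and 213 (adjusted p = 0.038). That call ended without either Hep library (adjusted p = 0.14 and 0.1) and without replicate 1 or 5 (adjusted p = 0.061 and 0.065).

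Other reached genes came from several functions. Clu, the secreted chaperone clusterin, ranged from 444 to 1474 CPM with a median of 889, against 1074 and 1299. Gclc, the rate-limiting enzyme of glutathione synthesis, was higher than in Hep, with 433 to 2196 CPM against 335 and 372 (log2 difference 2.08 ± 0.59, adjusted p = 0.0046). Its lower values lay in replicates 4 and 5, at 433 and 557, and the others at 1525 or more. Without the first Hep library the adjusted p was 0.053. Ceacam1, a canalicular adhesion protein, ranged from 47.5 to 1568 CPM against 189 and 213, with the highest value in replicate 2. Foxa1 counts formally among the reached genes but was introduced.

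Genes called higher than Hep with an iHep_Foxa1 mean of 10 CPM or more and a Hep mean under 1 CPM were termed ectopic. They numbered 708, or 4.29% of all genes tested. Of these, 411 were at 10 CPM or more in MEF, 158 at 1 to 10 CPM and 139 under 1 CPM, that is, in neither reference. Among the 139, 43 were at 10 CPM or more in all 6 libraries. At 48 h after infection with the same factors (48h_Foxa1, 2 libraries), 1 of the 139 was at 10 CPM or more. In iHep cells made with Foxa2 or Foxa3 instead, 85 were at that level in each case. The 139 were chosen by their levels in iHep_Foxa1, Hep and MEF, so lower counts in these other groups follow in part from that choice. The share of all genes at that level was not computed for them. Nothing on the time of onset or on the Foxa gene is drawn from these counts.

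Few of the 139 ectopic genes absent from both references were on the lists: 8 were on the intestinal list, 5 on the epithelial, 4 on the stomach, 3 each on the pancreas and squamous epithelium, 2 each on the duct and lung lists, and 1 on the interferon list. Spink1, Clca1 and Tff3 had the highest means of the 139. Spink1, the trypsin inhibitor of pancreas and gut mucus, ranged from 198 to 8994 CPM with a median of 3983, against 0.612 and 0 in Hep and 0.0479 and 0 in MEF (log2 difference 13.51 ± 1.88, adjusted p = 2.1e-06). Replicates 1 and 3, at 198 and 357, lay well under the other 4, at 3807 or more. Tff3, the trefoil peptide of goblet cells, ranged from 153 to 3824 CPM with a median of 803, and Clca1, a secreted goblet cell protein, from 416 to 6542 with a median of 892; each had at most 3 reads in the 2 Hep libraries together. Gkn2, a gastrokine of the stomach surface, ranged from 20 to 387 CPM with a median of 189. Reg3g, an antimicrobial lectin of intestine, ranged from 2.83 to 423 with a median of 112 and had no count in either reference, at least 915-fold higher than Hep. Vil1, villin of the brush border, ranged from 54.5 to 962 with a median of 227, against 0.245 and 0.125.

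**Figure D4:**
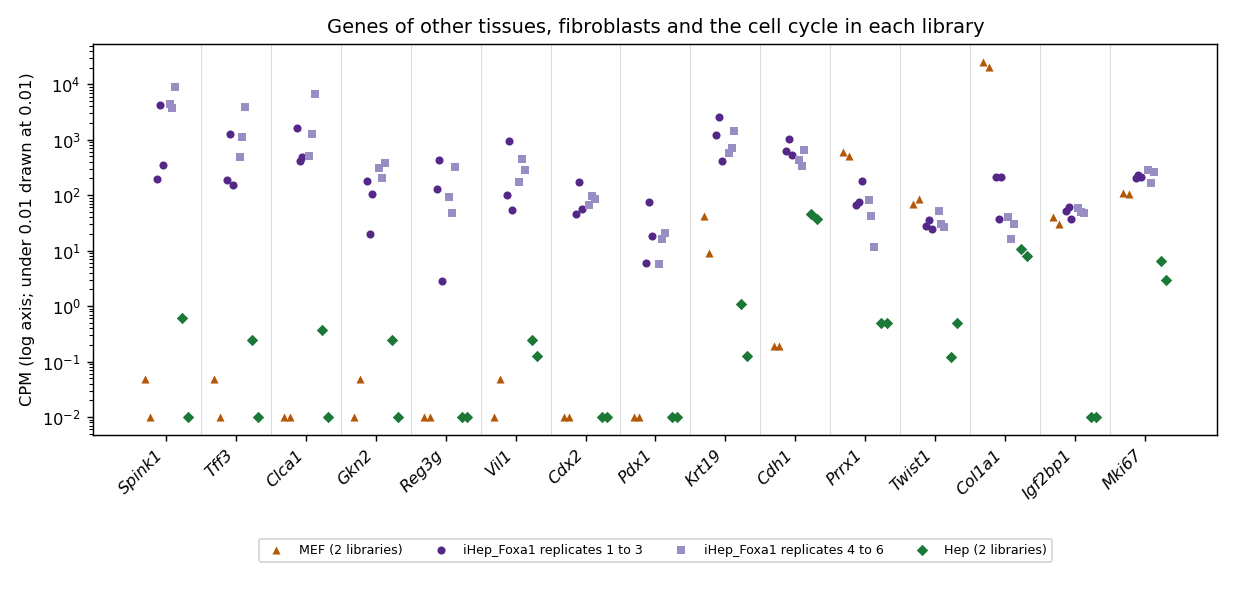
Level of 15 genes of gut, epithelium, fibroblasts and the cell cycle in each library (y axis, CPM, log; values under 0.01 are drawn at 0.01), with the symbols of MEF, iHep_Foxa1 and Hep as triangles, circles and squares, and diamonds. Spink1, Tff3 and Clca1 exceed 100 CPM in all 6 induced libraries, while Col1a1 lies between Hep and MEF.

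The ectopic genes included regulators of other tissues. Cdx2, the homeobox factor of intestine, ranged from 46.4 to 170 CPM with a median of 75.2 and had no count in Hep or MEF, at least 469-fold higher than Hep. Pdx1, the homeobox factor of pancreas and duodenum, ranged from 5.83 to 75.6 with a median of 17.3, at least 128-fold higher. Klf5, a factor of crypt epithelium, was at 42.3 to 147 CPM, against no count in Hep and 5.6 and 4.33 CPM in MEF. Cdx1, a close relative of Cdx2, was not on: its highest value was 0.0419 CPM. It was added after its values were seen.

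By list, 14 of 27 intestinal genes tested were higher than in Hep and 6 lower, 8 of 14 stomach genes higher and none lower, and 3 of 8 pancreas genes higher and 2 lower, against 35.3% higher and 24.8% lower over all genes. The pancreas counts were thus close to that background. With only the 2 compared groups in the fit, 9 intestinal genes were called higher. The list medians (log2) were 8.19, 8.97 and 5.82 over the tested genes, where members without reads in Hep have no defined fold; with those at their lower bound they were 4.75, 5.47 and 1.71, against 0.42 for all genes. Members with few reads anywhere were not tested: 2 of 29 intestinal, 8 of 22 stomach and 10 of 18 pancreas genes dropped out. Single libraries supplied some of the ectopic genes. Dmbt1, a mucin-like scavenger protein, was at 2313 CPM in replicate 2 and at 14.3 or less in the other 5, and its call ended without replicate 2 (adjusted p = 0.052) or without either Hep library (adjusted p = 0.11 and 0.16). Scgb1a1, the airway club cell secretoglobin, was at 463 CPM in replicate 6 and at 13 or less elsewhere, and lost its call without either Hep library (adjusted p = 0.13 in both cases). Amy2a5, a pancreatic amylase with near-identical copies and therefore uncertain, stood at 402 and 558 CPM in replicates 1 and 3 and at 26.7 or less in the others.

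Of 19 cholangiocyte and duct genes tested, 12 were higher than in Hep and 4 lower, against 35.3% and 24.8% of all genes. Against MEF 7 were higher and 5 lower. Krt19, the duct and gut keratin, ranged from 412 to 2549 CPM with a median of 967, against 1.1 and 0.125 in Hep and 42.6 and 9.18 in MEF. Sox9, a regulator of duct and progenitor cells, ranged from 53.6 to 202 against 6.37 and 6.35 in Hep and 18.1 and 21.6 in MEF. Other duct genes went the other way, with Aqp1 at 2.68% and Pkhd1 at 0% of the Hep level. Of the 20 genes on the duct list, 5 had an iHep_Foxa1 mean under 1 CPM. Afp, the fetal counterpart of albumin, ranged from 1.65 to 301 CPM with a median of 16, against 2.33 and 0.374 in Hep, and replicate 2 held the highest value while replicate 3 lay within the Hep range (adjusted p = 0.011). Without the second Hep library the adjusted p was 0.11. Of 12 fetal liver and oncofetal genes tested, 10 were higher than in Hep and 1 lower. Against MEF, 2 of them were higher and 2 lower. The list summed to 1512 to 3541 CPM in iHep_Foxa1 and to 4758 and 6614 in MEF. Igf2bp1, an RNA-binding protein of embryonic tissue, was at 37.3 to 62.2 CPM against no count in Hep and 41 and 29.6 CPM in MEF. It was named after its values were seen.

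Most matrix genes of fibroblasts had fallen from the starting level, and many of them, though not all, were still above the hepatocyte level. Of 33 matrix genes, 19 were higher than in Hep and 2 lower, and 28 were lower than in MEF. Col1a1, the main fibrillar collagen, ranged from 16.2 to 215 CPM with a median of 39.1, against 10.8 and 7.97 in Hep and 25473 and 20378 in MEF; its call against Hep was lost without the second Hep library (adjusted p = 0.05). Vim, the intermediate filament of mesenchyme, ranged from 256 to 896 with a median of 631, against 12.9 and 5.48 in Hep and 4680 and 2444 in MEF (log2 difference from Hep 5.98 ± 0.65, adjusted p = 5.8e-08). Fn1, fibronectin, which hepatocytes secrete too, ranged from 610 to 5016 CPM against 1901 and 2109 and was not called (adjusted p = 0.89), whereas over replicates 4, 5 and 6 alone it was called lower (log2 -1.31, adjusted p = 0.0094). Without the second Hep library 11 matrix genes were called higher.

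Regulators of mesenchyme persisted in the same way, with 21 of 31 higher than in Hep, 2 lower, and 19 lower than in MEF. Prrx1, a homeobox factor of limb mesenchyme, ranged from 11.5 to 181 CPM with a median of 70.3, against 0.49 and 0.498 in Hep and 609 and 506 in MEF. Twist1, a driver of mesenchymal transition, ranged from 24.1 to 51.4 against 0.122 and 0.498 in Hep and 70.2 and 84.7 in MEF. Foxf2, a forkhead factor of gut mesenchyme, was above both references, at 16.4 to 107 CPM against no count in Hep and 2.87 and 3.47 in MEF. Of 34 Hox genes, which record position along the body, 25 were higher than in Hep and none lower, and 1 was higher and 2 were lower than in MEF. Leaving out either Hep library lowered the 25 to 13 or 14. Hoxa9 ranged from 2.85 to 55.4 CPM against 29.2 and 35.2 in MEF and no count in Hep. Hoxd12 and Hoxd13, which mark the limb end, were the Hox genes lower than in MEF: the first at 0.341 CPM at most against 32.2 and 29.9, the second at 0.167 to 32.3 against 105 and 97.5. The call of Hoxd13 ended without either MEF library (adjusted p = 0.1 and 0.097). Col1a1, Twist1 and these 2 Hox genes were named after their values were seen.

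Of 30 proliferation genes, 27 were higher than in Hep and none lower. Mki67, the marker of cycling cells, ranged from 169 to 288 CPM with a median of 225, against 6.49 and 2.99 in Hep and 111 and 107 in MEF (log2 difference from Hep 5.59 ± 0.49, adjusted p = 2.1e-09). The 3 genes not called included Ccnd1, at 129 to 1986 CPM against 704 and 420, which over replicates 4, 5 and 6 alone was called lower (log2 -1.62, adjusted p = 0.0062), and Tk1, at 36.1 to 51.3 against 49.1 and 45.6; with reads alone Tk1 was called higher (log2 0.85). Inhibitors of the cycle and targets of p53 were high at the same time, 12 of 17 above Hep and none below. Cdkn1a (p21) ranged from 129 to 477 CPM with a median of 456, against 3.18 and 7.47 in Hep and 467 and 232 in MEF. The receptor Tgfbr2 was at 296 to 404 CPM against 22.3 and 17.3 in Hep and 357 and 399 in MEF. Of 23 genes of the TGF-beta pathway, 18 were higher than in Hep and 2 lower. Against MEF, 3 of these genes were higher and 13 lower.

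**Figure D5:**
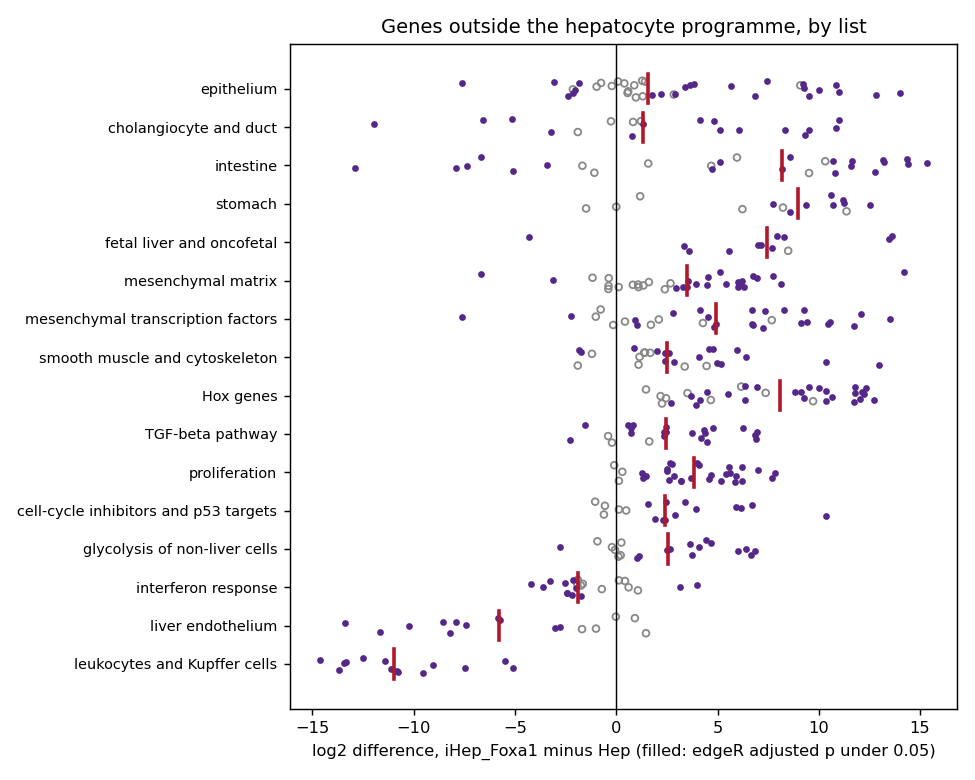
Log2 difference between iHep_Foxa1 and Hep (x axis, iHep_Foxa1 minus Hep) for the tested genes of 16 lists outside the hepatocyte programme, 1 point a gene, filled where the edgeR adjusted p was under 0.05. Red bars are list medians; those of the proliferation and Hox lists lie right of 0 and those of leukocytes and liver endothelium left of it.

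Some differences lay in genes of other liver cells. All 14 leukocyte and Kupffer cell genes tested were lower in iHep_Foxa1, and their list summed to 387 and 539 CPM in Hep, 29.6 and 338 in MEF and at most 1.27 in any induced library. Cd5l and Clec4f, which mark Kupffer cells, were at 119 and 83.1 CPM and at 60.6 and 46.3 CPM in Hep, with no count in iHep_Foxa1. Of 16 endothelial genes 11 were lower, and of 11 stellate cell genes 4 were lower and 1 higher. Clec4g, of liver sinusoids, was at 48 and 40.5 CPM in Hep and without a count in iHep_Foxa1. Such genes are counted among the missing hepatocyte genes where they meet the level rule, and how many more of the 475 come from these cells was not tested. In all, 10 interferon response genes of 21 were also lower and 2 higher, and B2m, a light chain of antigen presentation, ranged from 72.8 to 78.5 CPM in replicates 1, 2 and 3 and from 298 to 505 in replicates 4, 5 and 6, against 956 and 1523; without the second Hep library 6 interferon genes were called lower. In these bulk libraries, fewer cells of a type and less RNA per cell cannot be told apart, and this holds for each level above, Alb and Spink1 included.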

How the data were processed

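RNA sequencing of 28 libraries in 9 groups was analysed. The authors deposited, for each library, an expected count, an FPKM and a fraction of molecules per transcript, per the file headers. The submitters' processing notes name BWA 0.7.12 and build mm9; the program that estimated the counts is not given in the sources used here. Of 30710 transcripts, 30190 were named from RefSeq and 181 from GENCODE tables. The other 339 kept their identifier in place of a name (0.609% to 3.208% of the reads of a library). Their rows were treated like those of named genes in the filter, the library sizes and the test. Among the 708 ectopic genes, 9 are known by identifier only. Expected counts were summed per gene into 23712 rows, these included, and rounded to whole numbers. Levels in CPM use TMM library sizes. The test was edgeR 4.0.16 (R 4.3.3), quasi-likelihood and robust, with 1 coefficient a group over all libraries, 19 residual degrees of freedom and the tool's default filter on low counts (16499 genes kept), with Benjamini-Hochberg adjustment and a threshold of 0.05. A fold against a group with no reads was set against a floor of 3 counts over that group. DESeq2 1.42.0 and limma 3.58.1 on log2(deposited FPKM + 1) served as alternatives, beside other scalings, filters, library sets and left-out libraries. On simulated counts the test recovered 83% of 100 genes changed 4-fold and 93% of 100 changed 16-fold, over 16323 genes. In that simulation rises and falls were balanced and all other genes were equal between iHep_Foxa1 and Hep. In the data 60.1% of genes were called. The simulation therefore does not cover the scaling of libraries that differ this widely. Of 850 genes on 41 lists, 6 had no row and 51 passed no filter.

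Named genes were the introduced factors, the members of a list with the highest Hep or iHep_Foxa1 levels (any member, for lists of regulators), the most changed genes without overlap, the highest reached, missing and ectopic genes, and Rn7sk and Rps29. Exceptions are marked in the text; some genes and 1 planned motif are not reported here. The comparison and the lists were chosen with earlier results of these data known. Promoters come from RefSeq (GRCm38.p6), a build other than that of the counts, and were joined by gene symbol.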

Additional observations from a re-analysis of the deposited data

Results flagged for a closer look

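For 96 named genes, each of the 6 iHep_Foxa1 libraries was set against the other 5, and in 19 genes 1 library stood apart from the rest by Dixon's criterion. Chance alone marks about 1 in 20 groups where values are normally distributed. The criterion was applied to CPM without a log, and all 19 flagged values were the highest of their gene. The share that chance marks in such skewed values was not tested, so the 19 cannot be set against 1 in 20. Replicate 2 was the library concerned for 9 genes. Among those are the regulators Gata4 at 81.2 CPM, Klf5 at 147 and Pdx1 at 75.6. Another 2 are receptors, Nr1h4 at 3.22 and Nr1i2 at 56.1 CPM. The others in replicate 2 were Afp at 301, Ceacam1 at 1568, Dmbt1 at 2313 and Pklr at 6.27 CPM. Each was the highest value of its gene.

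Replicate 1 stood apart for Alb at 1683 CPM and Cps1 at 3.44. Replicate 4 did so for Apoa2 at 1.96 CPM. Replicate 5 did so for Ahsg at 2751 CPM, Nr1i3 at 1.37 and Cyp8b1 at 1.31. In replicate 6 the genes were Clca1 at 6542 CPM, Por at 334, Scgb1a1 at 463 and Tff3 at 3824. No gene had its separate value in replicate 3.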

How the results depend on the processing

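Of 119 genes described, 94 were called against Hep, and 77 of these kept direction and call under every alternative that gave an adjusted p. With assigned reads alone, chosen after the scaling factors were seen, 9326 genes were higher and 2373 lower than in Hep, 79.7% and 20.3% of the calls against 58.7% and 41.3%, with 266 partial and 177 trace genes; limma on FPKM called 2157 lower (20.8% of its calls). FPKM in place of CPM left 803 hepatocyte genes, 228 partial and 123 at trace level. Counting a gene as reached from 25% of Hep gave 180. With only the compared groups in the fit, 7562 genes were called against Hep, 3950 higher and 3612 lower. The same setting called 3506 genes against MEF, 1596 higher and 1910 lower. Leaving out 1 library gave 7845 to 10005 calls against Hep (4346 to 5891 higher, 3422 to 4180 lower) and 3930 to 7201 against MEF (1673 to 3655 higher, 2257 to 3546 lower), with the lowest counts against MEF without the second MEF library (4305 calls and 1781 higher without the first). It gave 1237 to 1276 hepatocyte genes, of which 82 to 103 reached, 401 to 419 partial, 259 to 286 trace and 473 to 487 missing, and 633 to 728 ectopic genes (121 to 151, 147 to 175 and 364 to 443 by rising MEF level). Dropping 1 library of a pair leaves a lone sample that is assumed to vary like the other groups. Directions turned (log2) for Tk1 against Hep with reads alone (0.85) and limma (0.79). Over replicates 4, 5 and 6 alone they turned for Ccnd1 (-1.62) and Fn1 (-1.31) against Hep. Over replicates 1, 2 and 3 alone they turned for Rps29 against Hep (-0.78) and MEF (-0.23) and B2m against MEF (-1.23). With a term for the library set, they turned for Rn7sk (-2.37) and Rps29 (-0.42) against Hep and B2m against MEF (-1.06). Apart from those that change the samples or the threshold by construction, the cause was not tested. The labels do not say whether the replicate numbers pair the samples. Deviations of same-numbered libraries from their group mean correlated across genes at r = 0.09 and -0.07 with Hep and 0.04 and -0.02 with MEF. In a group of 2 libraries the 2 deviations mirror each other, so these values cannot decide whether a pairing exists. With the replicate number as a block, 9755 genes were called against Hep and 5857 against MEF. Depth limits genes at 0, for which a bound from 3 counts is given.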
